A study of Homo sapiens with 6 samples.

Results

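The regions described here are the BRA (brachyury, T) ChIP-seq peaks around 4 homeobox genes of the primitive streak, MIXL1, GSC, LHX1 and OTX2. A peak was taken when its midpoint lay in the gene or within 50 kb on either side of it. This gave 63 peaks of the 54994 in 4 deposited lists, namely 33 of 25864 for FLyA and 24 of 23687 for FLyB with the R&D Systems antibody, and 2 of 2436 for FLyA and 4 of 3007 for FLyB with the Santa Cruz antibody. All cells came from H9, an established human embryonic stem cell line, and both media held FGF2 (20 ng/ml) and LY294002 (10 μM), an inhibitor of PI3 kinase, for the 36 h of growth. FLyA medium also held 100 ng/ml activin A and gave the cells labelled endoderm progenitors, and FLyB medium held 10 ng/ml BMP4 in its place and gave those labelled mesoderm progenitors. There was 1 library per medium and antibody, so values of a single list have no replicate error. The antibodies give 2 pairs of media, over which an exact two-sided permutation test cannot go below p = 0.5. The 2 input libraries were not analysed here. The lists give positions only (build hg19, per the submitters' processing notes), without heights, so a peak is a call that the site was enriched and not a level of binding. The cells were immunoprecipitated as bulk populations, and a site bound in few cells cannot be told apart from one bound weakly in many. The lists hold no expression values, so the labelled cell types could not be checked against markers.

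During gastrulation, epiblast cells pass through the primitive streak and become mesoderm or endoderm. BRA is a T-box transcription factor of the streak, and signals of the activin/NODAL and BMP families divide the streak into an anterior part, which gives endoderm and axial mesoderm, and a posterior part. MIXL1 encodes a paired-type homeodomain factor of the whole streak that takes part in the formation of endoderm and mesoderm. GSC encodes goosecoid, a homeodomain repressor known as a marker of the Spemann organizer and the anterior streak. LHX1 encodes a LIM homeodomain factor of the organizer and of axial, lateral and kidney mesoderm. OTX2 encodes a homeodomain factor of the epiblast, the anterior endoderm and the head. The question of the comparison is whether BRA occupies the same places near these genes in the activin and in the BMP4 medium.

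The promoters of MIXL1 and GSC are shown because peaks were called at the start of MIXL1 in both media and 0.8 kb from the start of GSC in FLyA. Both starts are known here to 1 kb only. Each line gives the 250 bases before the transcription start from RefSeq (build GRCh38.p14), 5′ to 3′ on the strand of the gene. Capitals mark GTCTG, the reverse complement of the SMAD box CAGAC. The first lies at chr1:226223414-226223663 on the + strand and the second at chr14:94770114-94770363 on the - strand.
MIXL1: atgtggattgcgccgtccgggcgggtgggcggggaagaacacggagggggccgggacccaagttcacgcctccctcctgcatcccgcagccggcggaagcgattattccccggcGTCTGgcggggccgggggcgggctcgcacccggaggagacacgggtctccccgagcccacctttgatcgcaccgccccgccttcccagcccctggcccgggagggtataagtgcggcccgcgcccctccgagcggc
GSC: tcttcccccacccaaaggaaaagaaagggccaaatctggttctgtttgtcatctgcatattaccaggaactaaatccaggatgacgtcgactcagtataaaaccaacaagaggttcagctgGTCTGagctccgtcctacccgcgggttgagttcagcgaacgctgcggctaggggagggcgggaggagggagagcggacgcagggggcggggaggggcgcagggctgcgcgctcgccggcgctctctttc

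These stretches differ in base composition, with 74.0% G and C at MIXL1 and 59.6% at GSC. Both strands were searched for the T-box site AGGTGTGA, its core GGTGTG, the SMAD box CAGAC, the homeodomain site TAATCC and the paired homeodomain palindrome, which is TAAT followed after 3 bases by ATTA. The core lies within the T-box site, so a match to the longer motif is also a match to the shorter. Each of the printed promoters held 1 SMAD box and none of the other motifs. Of all 35116 RefSeq promoter stretches of this length, 38.0% held a SMAD box, 14.2% the T-box core, 0.786% the T-box site, 5.62% TAATCC and 0.330% the palindrome. Of the other stretches searched, 1 of 2 OTX2 promoters held a SMAD box and neither held another of these motifs. Promoters of 3 of the 4 genes were in the table, and LHX1 is named only. The peaks themselves were not searched, since no genome of their build was used here.

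With the R&D Systems antibody, all 4 genes had peaks in both media, but the balance differed from gene to gene. GSC had 10 FLyA peaks and 3 FLyB peaks, OTX2 had 10 and 5, MIXL1 had 5 and 5, and LHX1 had 8 and 11. FLyA peaks thus outnumbered FLyB peaks at the goosecoid and OTX2 genes, the numbers were equal at MIXL1, and FLyB peaks were in excess at LHX1. The whole FLyA list is slightly longer than the FLyB list, by far less than the ratio at GSC. With the Santa Cruz antibody, FLyA and FLyB gave 0 and 0 peaks at GSC and OTX2, 2 and 1 at MIXL1, and 0 and 3 at LHX1. The FLyB excess at LHX1 was thus 3 peaks with either antibody (exact permutation test over the 2 pairs, two-sided p = 0.5, the smallest possible). The equal numbers are not taken as a replication, since Santa Cruz coverage differed between the media. Genome-wide, a Santa Cruz peak lay on 3.02% of the calls of the other antibody in FLyA, against 10.0% in FLyB. How much of the 0 against 3 comes from this was not tested. Also, 2 of the 3 Santa Cruz peaks lay on LHX1 sites that the R&D Systems antibody called in both media. At each of the other genes 1 antibody gave a difference of 0. This fixes p of the same test at 1.0 whatever the other antibody gave, so it says nothing about those genes.

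**Figure D1:**
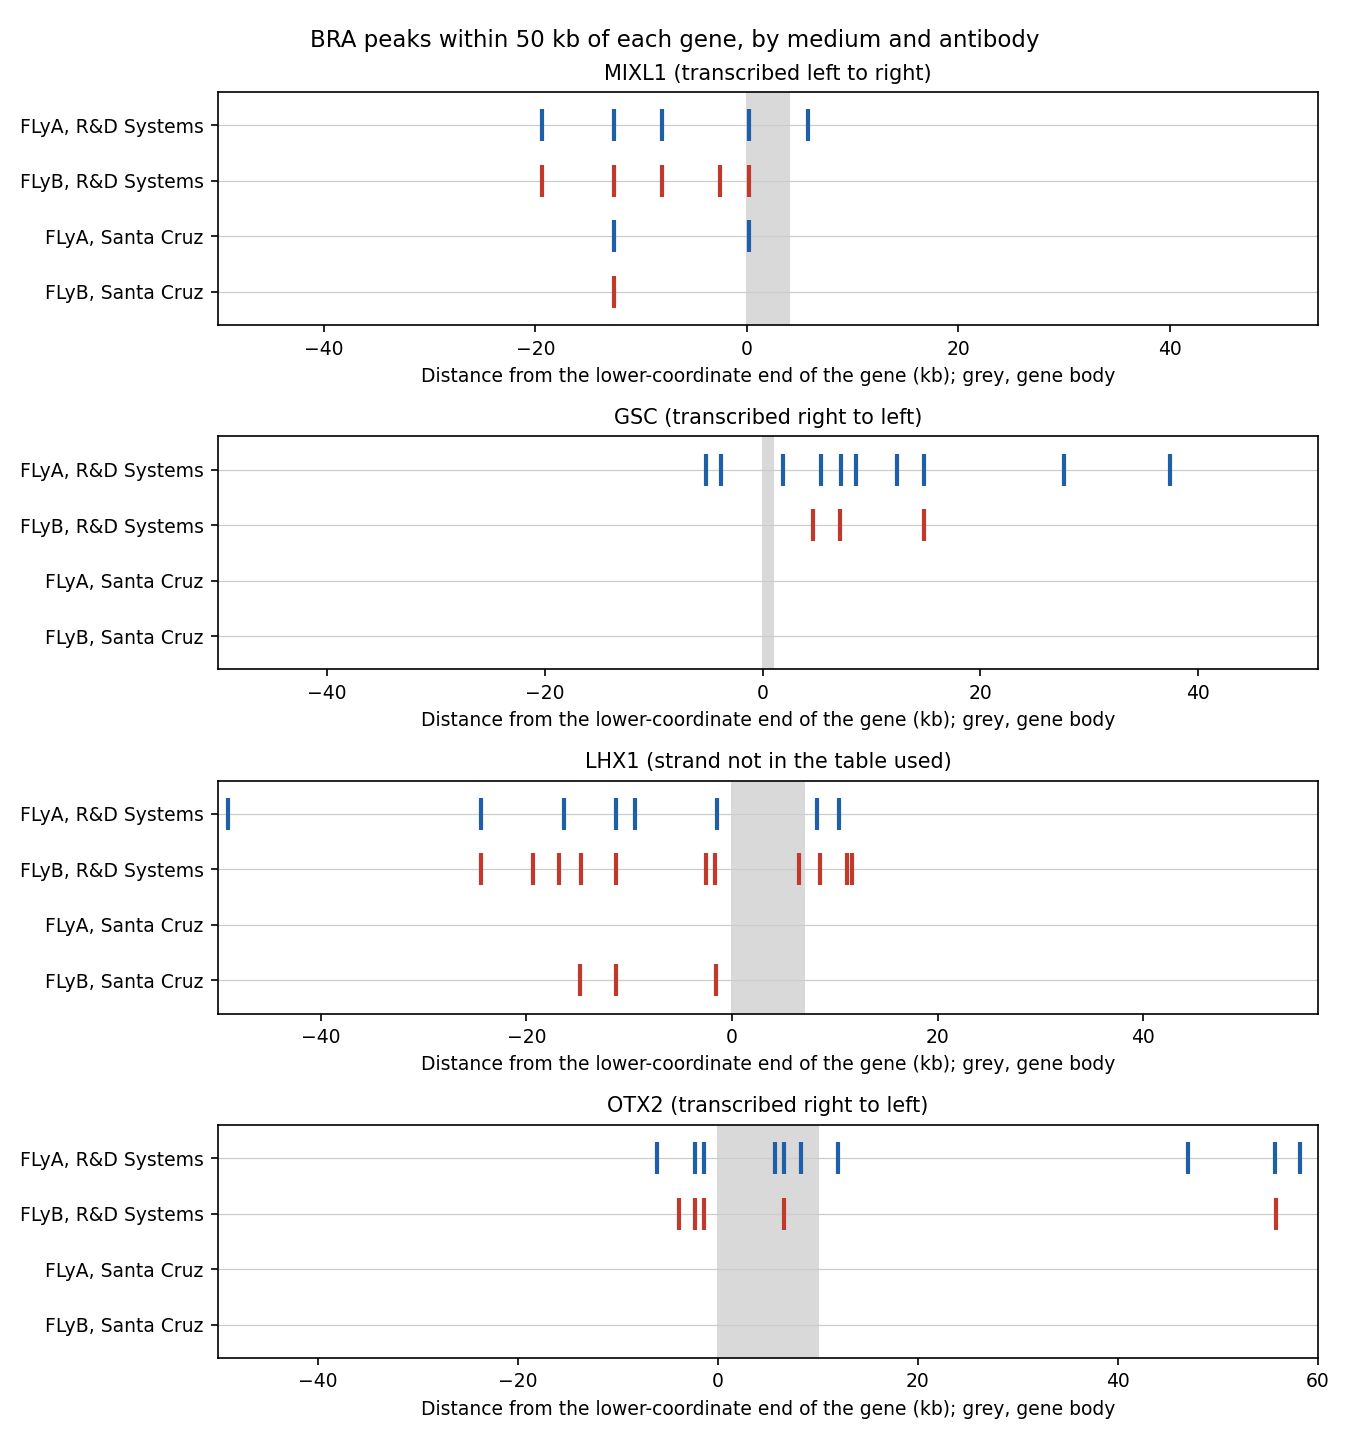
Midpoints of the BRA peaks (ticks) around each gene, by list, plotted against the distance in kb from the gene's lower-coordinate end; blue is FLyA, red is FLyB, and the grey band is the gene body, whose edges are known to 1 kb. FLyA ticks outnumber FLyB ticks at GSC (10 against 3) and OTX2 (10 against 5), and Santa Cruz ticks occur only at MIXL1 and LHX1.

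Joining peaks that overlapped by at least 1 bp gave 43 separate sites, of which 19 were called in FLyA only, 14 in both media and 10 in FLyB only. Each of the 6 Santa Cruz peaks fell on an R&D Systems peak of its own medium and added no site. At MIXL1, 4 of 6 sites were called in both media. At GSC, 2 of 11 sites were in both media, 8 in FLyA only and 1 in FLyB only. At OTX2, 4 of 11 sites were in both media, 6 in FLyA only and 1 in FLyB only. At LHX1, 4 of 15 sites were in both media, 4 in FLyA only and 7 in FLyB only. Over all 43081 sites joined in the same way, 79.9% were called in 1 medium, 43.7% in FLyA only and 36.2% in FLyB only. Calls in 1 medium were thus the usual case in these lists, and their large share at GSC, LHX1 and OTX2 does not set those genes apart from the lists as a whole.

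**Figure D2:**
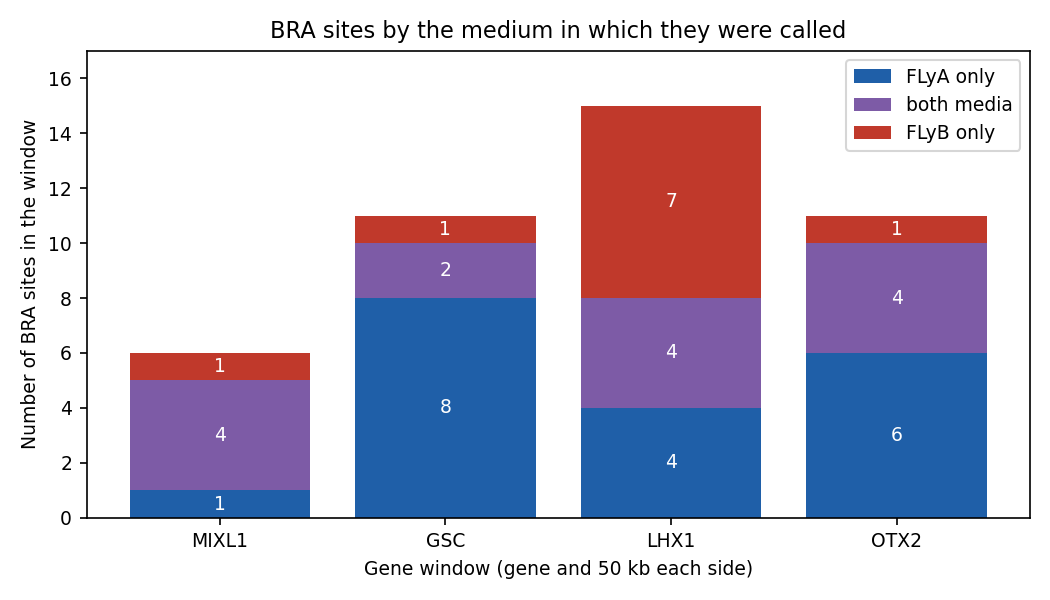
Number of joined BRA sites in each gene window (bar height), divided into sites called in FLyA only (blue), in both media (purple) and in FLyB only (red). FLyA-only sites make up 8 of 11 at GSC and FLyB-only sites 7 of 15 at LHX1.

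Over the 4 genes, 19 of the 33 R&D Systems FLyA peaks had no FLyB partner, or 57.6% (exact Clopper-Pearson 95% interval 39.2 to 74.5%), against 67.0% of the whole FLyA list. Of the 24 FLyB peaks, 10 had no FLyA partner, or 41.7% (22.1 to 63.4%), against 63.9% of the whole FLyB list. The intervals cover counting error only and treat neighbouring peaks as independent, which they are not. The FLyA interval holds the share of its whole list, and the FLyB interval ends just below the share of its list. Peak-rich stretches had lower shares in general: in tiles of 100 kb with at least 10 R&D Systems peaks, 42.7% of FLyA peaks and 52.7% of FLyB peaks lacked the other medium, and both of these lie inside the intervals of the 4 genes. The genes differed within these totals, with 8 of 10 FLyA peaks unshared at GSC, 6 of 10 at OTX2, 4 of 8 at LHX1 and 1 of 5 at MIXL1. Taken alone, the GSC interval (44.4 to 97.5%) held the 67.0% of the whole FLyA list. It lay just above the 42.7% of peak-rich tiles, which the intervals of the other genes held. With only 3 FLyB peaks in the GSC window, few of its 10 FLyA peaks could have a partner. The GSC share is therefore not separate from the difference in counts. Of the unshared FLyB peaks, 7 lay at LHX1 and 1 at each of the other genes, and the share fell to 23.1% without LHX1.

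The counts were set beside the 17676 tiles of 100 kb that held an R&D Systems peak of either medium, of which the median held 1 FLyA and 1 FLyB peak. The gene windows are 101 to 110 kb wide, slightly wider than a tile, and are centred on a gene, which tiles are not. At least 10 FLyA peaks, the number at GSC and OTX2, occurred in 12 tiles (0.0679%). At least 8 FLyA peaks, the number at LHX1, occurred in 60 tiles (0.339%), and at least 5, the number at MIXL1, in 561 (3.17%). For FLyB, at least 11 peaks occurred in 26 tiles (0.147%), at least 5 in 782 (4.42%) and at least 3 in 2686 (15.2%). By these counts the GSC and OTX2 windows were among the tiles richest in FLyA peaks and the LHX1 window among those richest in peaks of both media, while the FLyB count of GSC was reached by many tiles.

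The difference between the media was compared among tiles at least as peak-rich as each window. GSC held 7 more FLyA than FLyB peaks, and of the 140 tiles with at least 13 R&D Systems peaks, 3 had a FLyA excess of that size or more (2.14%). OTX2 held 5 more FLyA peaks, an excess found in 3 of 72 tiles with at least 15 peaks (4.17%). LHX1 held 3 more FLyB peaks, which was common, occurring in 9 of 16 tiles with at least 19 peaks (56.2%). MIXL1 had equal counts, as did 58 of 411 tiles with at least 10 peaks (14.1%). Peak-rich tiles leaned to FLyB as a class, although the whole FLyA list is the longer. Those with at least 10 R&D Systems peaks held 2278 FLyA and 2772 FLyB peaks. Against that lean, a FLyA excess such as that of GSC or OTX2 was rare among peak-rich tiles, and the FLyB excess of LHX1 was not. These percentages describe the lists and are not probabilities, and the tiles can include those in which the genes themselves lie. For GSC they do: a single tile holds all R&D Systems peaks of its window and no others. GSC itself is thus among the 3 tiles of its comparison. The LHX1 difference also depended on the width of the window, with 16 peaks in each medium when 100 kb were taken on either side.

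**Figure D3:**
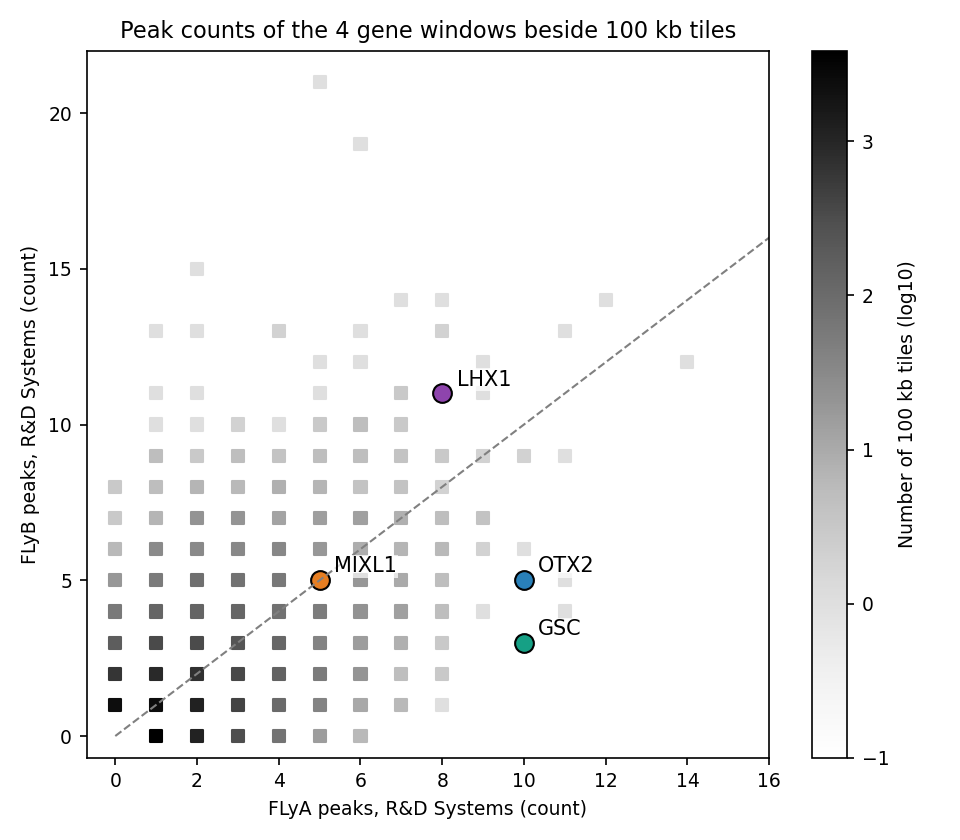
Number of R&D Systems FLyA peaks (x axis) and FLyB peaks (y axis) in tiles of 100 kb, as grey squares shaded by the number of tiles (log10 scale), with the 4 gene windows as coloured points and a dashed line where the counts are equal. GSC (10, 3) and OTX2 (10, 5) lie below the line, MIXL1 (5, 5) on it and LHX1 (8, 11) above it.

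MIXL1 had the only site of the 4 genes that was called in every list. In the hg19 positions of the lists, a site at chr1:226398231-226398654, 12.6 kb upstream of the gene, was called in all 4 lists, and the midpoints of its peaks lay within 24 bp of each other. Of the FLyA peaks of the whole R&D Systems list, 222 (0.858%) overlapped a peak in each of the other lists. A second site, at chr1:226410988-226411444, covers the start of the gene to the 1 kb precision with which its edges are known here. It was called in both media with the R&D Systems antibody and in FLyA with the Santa Cruz antibody. The Santa Cruz FLyB list held no peak at the start of MIXL1, which at an unknown depth does not show that the site was unbound.

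The other MIXL1 sites were seen with the R&D Systems antibody alone. Sites 19.4 and 8.0 kb upstream were called in both media, with midpoints 56 and 31 bp apart. A site 2.6 kb upstream, between these and the start, was called in FLyB only, and a site 1.8 kb beyond the 3′ end in FLyA only. Upstream sequence thus held 4 of the 6 sites, and no peak of the window in any list lay further than 19.4 kb from the gene. The protein-coding genes ACBD3 and LIN9 and non-coding transcripts also lie within 50 kb of MIXL1 in the RefSeq annotation, and position alone does not assign a peak to a gene.

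At GSC the FLyA sites formed a run upstream of the gene. The FLyA peak nearest the start, at chr14:95236646-95237045, lay 0.8 kb from the 5′ end and had no FLyB peak within 2 kb. Distances to the gene are only as exact as its edges, which are known to 1 kb. FLyA peaks followed at 4.4, 6.2, 7.6, 11.4, 13.8, 26.7 and 36.4 kb upstream, and 2 more lay 3.8 and 5.2 kb beyond the 3′ end. The 3 FLyB peaks all lay upstream, at 3.7, 6.1 and 13.8 kb, within the span of the FLyA run. At 13.8 kb, at chr14:95249631-95250040, the midpoints of the media were 10 bp apart, the closest pair among the 14 shared sites of the 4 genes. The pair near 6 kb was offset by 178 bp. The FLyB peak at 3.7 kb and the FLyA peak at 4.4 kb were 330 bp apart at their edges and so counted as separate sites. Both downstream peaks, the peak at the start and the peaks more than 14 kb upstream were called in FLyA and not in FLyB. No Santa Cruz peak of either medium lay in the GSC window. The transcript GSC-DT and the pseudogenes RPL15P2 and RPSAP4 lie within 50 kb of GSC in the annotation, so position alone does not assign these peaks to GSC.

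LHX1 had the most sites, 15, and the largest number in FLyB. Its strand was not in the table used, so positions are given by coordinate. On the lower-coordinate side, sites were called in both media at 24.5, 11.3 and 1.6 kb from the gene. FLyB-only sites lay at 19.4, 16.8, 14.8 and 2.6 kb on that side, at the higher-coordinate end of the gene body, and at 4.2 and 4.7 kb beyond it. FLyA-only sites lay at 49.1, 16.3 and 9.4 kb on the lower side and at 3.4 kb on the higher side. A site at chr17:35303089-35303772, 1.3 kb beyond the gene, was shared by an overlap of 116 bp, with midpoints 284 bp apart, the widest offset of the 14 shared sites. FLyA-only and FLyB-only sites were thus mixed from 19.4 kb on the lower side to 4.7 kb on the higher side.

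The Santa Cruz antibody gave 3 FLyB peaks and no FLyA peak at LHX1. They lay at chr17:35279977-35280376, chr17:35283530-35283929 and chr17:35293202-35293601, all on the lower-coordinate side. The R&D Systems peaks beneath the last 2 were called in both media, so there the FLyA call came from the R&D Systems antibody alone. The first, 14.8 kb from the gene, lay on an R&D Systems peak that was called in FLyB only, with midpoints 139 bp apart. It was the only site of the 4 genes called in 1 medium with both antibodies. The lower edge of the LHX1 window cut through a peak-rich stretch, since FLyA and FLyB peaks also lay 1.59 and 2.28 kb outside it. The protein-coding gene AATF and the transcript LHX1-DT lie within 50 kb of LHX1 in the annotation.

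At OTX2 the sites fell into 2 groups separated by 34.5 kb without a peak in any list. The first group covered the gene and its near flanks. Within the gene body, chr14:57273385-57273810 was called in both media with midpoints 26 bp apart, and FLyA peaks without a FLyB partner lay on either side of it, at chr14:57272508-57272907 and chr14:57275060-57275459. Beyond the 3′ end, sites at 1.4 and 2.3 kb were shared, a site at 3.9 kb was in FLyB only and a site at 6.1 kb in FLyA only. Upstream, a FLyA peak lay 2.0 kb from the 5′ end, and the nearest FLyB peak was 5050 bp away from it. The second group lay 37.0 to 48.3 kb upstream and held 2 FLyA-only sites and 1 site common to the media, at 45.8 kb. As at GSC, no Santa Cruz peak lay in the window, and the transcript OTX2-AS1 lies within 50 kb of the gene.

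Pooled over the 4 genes, sites were densest close to the gene. The gene bodies and the 10 kb on either side held 27 of the 43 sites (62.8%) in 24.2% of the length of the windows. The density was 2.27 sites per 10 kb in gene bodies, 2.75 within 10 kb of them, 0.833 from 10 to 25 kb and 0.300 from 25 to 50 kb. Of the 6 sites between 25 and 50 kb, 5 were in FLyA only and 1 in both media, where 43.7% of the sites of the whole lists were in FLyA only. Peaks lay close together. In FLyA, 24 of 33 peaks (72.7%) had another FLyA peak within 5 kb, against 22.9% of the whole list, and in FLyB 19 of 24 (79.2%) against 30.2%. The median distance to the nearest peak of the same list was 2506 bp in FLyA and 2392 bp in FLyB, compared with 22668 and 16969 bp over the whole lists.

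Midpoints were a median of 47.5 bp apart at the 14 shared sites, with a range of 10 to 284 bp, and 7 of the 14 were at most 50 bp apart, compared with 60.7% of the 8544 shared sites of the whole lists, where the median was 38.0 bp. The peaks called in 1 medium were mostly near a peak of the other. Of the 19 FLyA-only peaks, 4 (21.1%) lay within 1 kb of a FLyB peak and 17 (89.5%) within 10 kb, against 6.22% and 24.4% over the whole list. Of the 10 FLyB-only peaks, 5 lay within 1 kb of a FLyA peak and 10 within 10 kb, against 8.42% and 31.8%. The closest such pair was at LHX1, with edges 88 bp apart at 16.8 and 16.3 kb on the lower-coordinate side. The windows are rich in peaks, which by itself shortens these distances, and how much of the nearness comes from it was not tested. The 2 FLyA-only peaks further than 10 kb from any FLyB peak were both at GSC, 26.7 and 36.4 kb upstream.

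**Figure D4:**
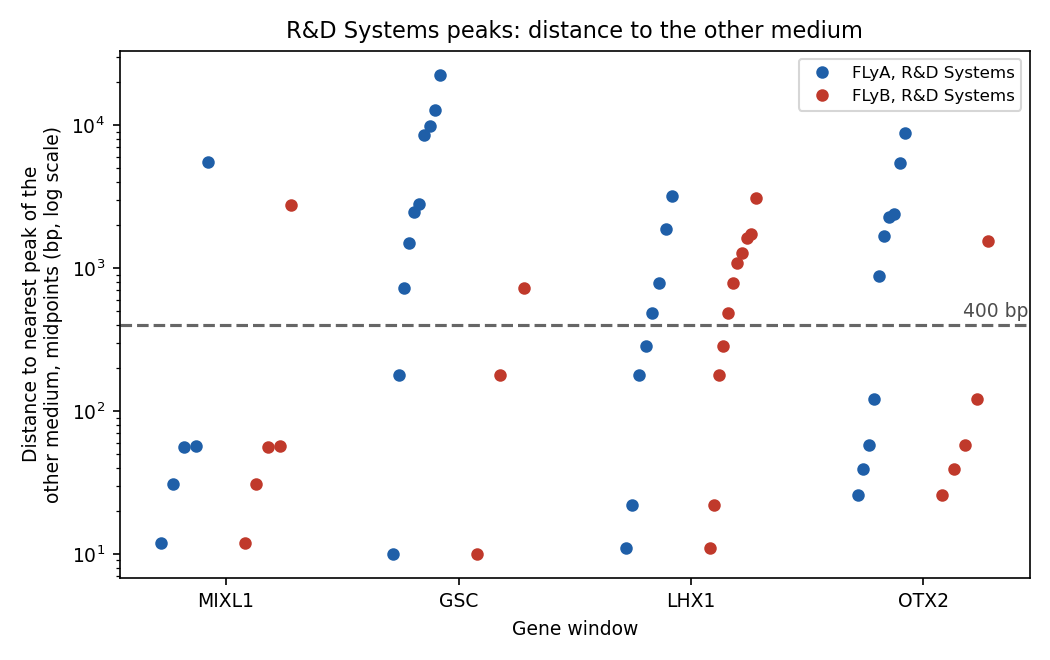
Distance in bp (log scale) from each R&D Systems peak to the nearest peak of the other medium, between midpoints, for FLyA (blue) and FLyB (red) peaks of each gene window; peaks below the dashed line at 400 bp overlap. At MIXL1 4 of 5 peaks of each medium lie below the line, and at GSC 8 of 10 FLyA peaks lie above it.

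The Santa Cruz antibody covered few of these sites, and the study describes its libraries as noisier and with fewer unique reads than those of R&D Systems, and the part of this in the missing calls was not tested. Of the 57 R&D Systems peaks of both media, 6 (10.5%, interval 3.96 to 21.5%) overlapped a Santa Cruz peak of the same medium, against 6.38% of the whole lists. This was 2 of 33 in FLyA (6.06%, 0.743 to 20.2%), both at MIXL1, against 3.02%, and 4 of 24 in FLyB (16.7%, 4.74 to 37.4%), of which 3 were at LHX1 and 1 at MIXL1, against 10.0%. These intervals all hold the shares of the whole lists. Counted from the Santa Cruz lists, 2 of 2 FLyA peaks and 4 of 4 FLyB peaks lay on an R&D Systems peak of the same medium, where the whole lists gave 31.9% and 79.0%. Of the 43 sites, 28 were called in a single list, 11 in 2 lists, 3 in 3 lists and 1 in all 4, where the same joining over the whole lists gave 76.8%, 19.5%, 3.16% and 0.525% of 43081 sites. Both antibodies had called 5 of the 43, against 7.05% of the 43081. The FLyA excess at GSC and OTX2 thus rests on the R&D Systems libraries alone.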

How the data were processed

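BRA ChIP-seq in H9-derived cells was analysed from 4 peak lists. Per the paper's methods a Genome Analyzer II was used for sequencing and the authors called peaks with MACS, and the submitters' processing notes name Bowtie 0.12.7 and hg19. The deposited lists hold chromosome, start and end, 400 bp for every peak, and no score, so read depth is unknown. The track lines of the Santa Cruz lists name a threshold of 1e-12. Those of R&D Systems have no such line. The paper normalises fold enrichment to input, while the library each list was called against and duplicate handling are not given in the sources used here.

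Members and lists were chosen with earlier results of these data known. Windows were the gene and 50 kb each side, with gene edges to the nearest kb and positions counted from 1. Peaks overlapping by at least 1 bp were called shared. Python 3.11.15, NumPy 2.4.6 and SciPy 1.17.1 were used, counts of overlaps over the whole lists were checked with bedtools 2.31.1, and the functions were tested on simulated data. Figures were drawn with matplotlib 3.10.9. Shares have exact Clopper-Pearson 95% intervals. Media were paired by antibody in an exact sign-flip permutation test over 2 pairs, added after seeing the data. Alternatives covered overlap, flank, antibody, merging of peaks, tiles and leaving out a gene. The rule for named genes was the 4 genes, 2 lists of related genes and genes with similar counts. Placing the related and the similar genes needs an hg19 annotation and searching the peaks for motifs an hg19 genome, so neither was run. Gene neighbours and promoters came from RefSeq (GRCh38.p14), by name only.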

Additional observations from a re-analysis of the deposited data

How the results depend on the processing

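Most values stayed within the limits set here, but the limits for shares are wide. A share counted as moved when it left the 95% interval of the reported value, and a count when it changed by over 1.5 times. Of 39 alternatives for the shares and totals, 35 stayed within these limits. Among R&D Systems peaks that also had a Santa Cruz peak, 0 of 2 FLyA peaks (0%) lacked the other medium. In the Santa Cruz lists alone, 3 of 4 FLyB peaks (75.0%) did. Counted from the Santa Cruz peaks, 100% lay on an R&D Systems peak. These rest on 2 to 6 peaks. With 100 kb on each side, the Santa Cruz FLyA total rose to 4, and the wider windows are the cause by construction. Some shifts inside the limits were large. When peaks with edges at most 500 bp apart counted as shared, the FLyA-only share fell from 57.6 to 45.5% and the FLyB-only share from 41.7 to 29.2%. Merging could not change a count, since no peaks of the same list overlapped in the windows. It is nevertheless included in the numbers of alternatives that stayed within the limits, here and for single windows.

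Leaving out each gene in turn, chosen after seeing the data, moved the FLyA-only share between 47.8 and 64.3% and the FLyB-only share between 23.1 and 47.4%, the lowest value being that without LHX1. The share of R&D Systems peaks with a Santa Cruz peak moved between 6.38 and 14.3% and was lowest without MIXL1. Of 60 alternatives for single windows, 53 stayed within the limits. At LHX1, 100 kb on each side gave 16 FLyA and 16 FLyB peaks, so the FLyB excess there ended, and 2 Santa Cruz FLyA peaks. At GSC it gave 1 Santa Cruz FLyB peak. With tiles shifted by 50 kb, chosen after seeing the data, 0.800% of peak-rich tiles reached the FLyA excess of GSC. The shifted tiles split the GSC peaks, so GSC itself no longer counts among them.

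With the media paired by antibody as a replicate block, chosen after seeing the data, the mean FLyA minus FLyB difference was 3.5 peaks at GSC, 2.5 at OTX2, 0.5 at MIXL1 and -3 at LHX1, against 7, 5, 0 and -3 with the R&D Systems antibody alone. The exact two-sided permutation p was 0.5 at LHX1, the smallest that 2 pairs can give, and 1.0 at the others. The value at the others was fixed by a difference of 0 with 1 of the antibodies, so it does not bear on the media there. The motif alternative was not run because no hg19 genome was used here. Without read depth, the absence of a call in 1 medium does not mean that the site was free of BRA.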
